A study of Mus musculus with 8 samples.

Results

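The replication-dependent histone genes were taken as all gene symbols of the tables that begin with Hist1h, Hist2h, Hist3h or Hist4h, which gave 69 of 24542 symbols. They comprised 6 genes of the linker histone H1, 19 of H2A, 19 of H2B, 12 of H3 and 13 of H4. By symbol, 55 are *Hist1* genes on chromosome 13, 10 belong to *Hist2* on chromosome 3, 3 to *Hist3* on chromosome 11 and 1, *Hist4h4*, lies on chromosome 6. Of the *Hist1* symbols, the pseudogene *Hist1h2al* lies outside the cluster, at chr13:51202727-51203065. GENCODE M21 (GRCm38) lists 67 of them as protein coding and 2 as processed pseudogenes, and 64 have a single exon. Reads were found for 62 in at least 1 sample, and 60 had more than 1 CPM (the read count scaled to library size with TMM factors) in at least 2 of the 8 samples.

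RNA was measured in female TX1072 embryonic stem cells (ESCs), a hybrid between *Mus musculus castaneus* (Cast) and C57BL/6 (B6) in which doxycycline (DOX) switches on *Xist* from the B6 X chromosome. The 4 groups were WT (*Hdac3*+/+) at 0 hr, WT after 24 hr of DOX at 1 μg/ml, Hdac3KO (*Hdac3*-/-) at 0 hr and Hdac3KO after 24 hr of the same DOX, with 2 samples in each. All were grown in serum with LIF and 2i, and the libraries were depleted of rRNA, so that transcripts lacking a polyA tail were retained. WT samples are duplicates of 1 line and Hdac3KO samples are 2 CRISPR/Cas9 clones of that line, and the labels do not say which clone carries which replicate number. No sample was kept for 24 hr without DOX, so DOX, *Xist* and a longer culture cannot be told apart.

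Replication-dependent histone genes supply the core histones that wrap new DNA during S phase, and the linker histones that bind between nucleosomes. Their mRNAs are the only known animal mRNAs that end without a polyA tail. They end instead just after a stem-loop that is bound by SLBP, and their transcription is organized by NPAT in histone locus bodies. HDAC3 is a histone deacetylase that works in the NCoR and SMRT corepressor complexes.

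The stem-loop stands where other mRNAs carry a polyA tail, and it is shown because it sets these mRNAs apart in libraries made without polyA selection. It was searched in GENCODE M21 transcripts as a perfectly paired 6-base stem of GG, 3 pyrimidines and T around a 4-base loop that begins with 2 pyrimidines. At least 1 transcript held it in 46 of the 69 genes (66.7%). Counted by transcript, a different unit, 150 of 141767 held it over all genes, this family included (0.106%). From the match to the annotated transcript end there were 3 bases in *Hist1h4m* and up to 4884 in *Hist1h1d*. The 46 fell into 8 forms, written 5′ to 3′ with the loop in capitals.
Form of 26 genes, among them Hist1h1e, Hist3h2a and Hist1h2bf: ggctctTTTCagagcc
Form of 7 genes, all H4, among them Hist1h4d, Hist1h4h and Hist4h4: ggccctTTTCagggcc
Form of 6 genes, among them Hist1h1t and Hist1h3e: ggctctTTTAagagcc
Form of Hist2h4 and Hist1h4i: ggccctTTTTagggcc
Form of Hist1h4j and Hist1h4b: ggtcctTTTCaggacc
Form of Hist1h4a: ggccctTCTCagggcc
Form of Hist1h3g: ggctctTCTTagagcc
Form of Hist2h2ac: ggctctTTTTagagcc
The H4 genes with a stem-loop, 12 of 13, had stems that no gene of another class carried. The shares in the other classes were 4 of 6 for H1, 11 of 19 for H2A, 10 of 19 for H2B and 9 of 12 for H3. A transcript model that ends with the coding sequence cannot hold the stem-loop, and the 23 genes without a match include *Hist1h1a*, *Hist1h2af* and *Hist1h2bl*.

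The 250 bases before the start of 4 genes described further below are shown next, from RefSeq (GRCm38.p6), 5′ to 3′ on the strand of the gene. Capitals mark, on either strand, the TATA box with the letters TATAAA, the box CCAAT, the octamer ATTTGCAT and the H1 box with the letters AAACACA, and none of these matches overlap in the 4 promoters.
Hist3h2a, chr11:58954435-58954684, plus strand: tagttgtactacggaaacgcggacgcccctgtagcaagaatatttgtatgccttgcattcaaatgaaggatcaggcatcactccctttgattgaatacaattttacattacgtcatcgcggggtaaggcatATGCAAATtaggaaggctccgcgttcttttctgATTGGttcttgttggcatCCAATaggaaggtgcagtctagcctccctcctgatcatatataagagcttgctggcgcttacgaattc
Hist1h1e, chr13:23622559-23622808, minus strand: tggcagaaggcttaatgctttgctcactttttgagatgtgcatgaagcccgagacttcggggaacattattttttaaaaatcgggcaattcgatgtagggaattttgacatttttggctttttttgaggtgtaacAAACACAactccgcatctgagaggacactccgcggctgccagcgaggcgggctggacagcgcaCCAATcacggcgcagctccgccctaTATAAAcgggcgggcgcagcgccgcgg
Hist1h1t, chr13:23695561-23695810, plus strand: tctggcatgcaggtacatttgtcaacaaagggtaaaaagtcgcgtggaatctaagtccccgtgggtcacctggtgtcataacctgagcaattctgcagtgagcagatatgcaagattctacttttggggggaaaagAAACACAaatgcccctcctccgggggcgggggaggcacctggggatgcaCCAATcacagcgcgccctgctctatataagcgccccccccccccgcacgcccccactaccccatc
Hist1h2aa, chr13:23934187-23934436, plus strand: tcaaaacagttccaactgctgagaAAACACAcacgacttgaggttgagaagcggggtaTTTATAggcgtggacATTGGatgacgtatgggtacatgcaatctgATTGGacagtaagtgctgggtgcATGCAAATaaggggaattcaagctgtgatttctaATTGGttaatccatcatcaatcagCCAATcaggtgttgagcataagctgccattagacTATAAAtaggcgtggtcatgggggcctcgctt
Of the 62 genes with a RefSeq promoter, CCAAT stood before all 6 H1, all 18 H2A and all 16 H2B genes, 8 of 10 H3 genes and 3 of 12 H4 genes (25%), against 33.8% of 32851 promoters. The octamer was found before 7 of 18 H2A (38.9%) and 6 of 16 H2B genes (37.5%) and no gene of another class, against 1.60% of all promoters. The H1 box was found before 5 of 6 H1 genes (83.3%), 2 of 18 H2A genes (11.1%), 2 of 16 H2B genes (12.5%) and no H3 or H4 gene, against 6.25% of all promoters. Neighbouring H2A and H2B genes on opposite strands can share these bases, so the same site can count for both genes. This held for the octamer and the H1 box of *Hist1h2aa* and *Hist1h2ba*. These are matches of letters and no evidence of binding.

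Depth ran from 6940375 to 17125156 reads per sample. *Hdac3* had 301 to 512 reads in WT and 63 to 98 in Hdac3KO (log2 fold change -2.61, SE 0.18, at 0 hr, adjusted p = 0.000585, edgeR quasi-likelihood test with Benjamini-Hochberg adjustment), and *Xist* rose from 86 to 293 reads at 0 hr to 12056 to 23321 at 24 hr. *Rn45s*, left after rRNA depletion, took 7.03% to 8.31% of reads. The 7 ESC markers summed to 4223 to 4434 CPM in WT and 4892 to 5079 in Hdac3KO, with *Nanog* and *Zfp42* higher in Hdac3KO at both times. Markers of fibroblasts, mesoderm and endoderm, trophoblast and neural cells each summed to under 82 CPM, and no gene of these 4 lists was at 0 in all samples. Of these lists the fibroblast sum (40.8 to 59.6 CPM in WT, 28.9 to 40.4 in Hdac3KO) and the neural sum (5.42 to 6.89 and 2.62 to 4.19) differed without overlap, as did the 3 markers of primed cells (146 to 160.2 and 90.1 to 112), with *Dnmt3b* and *Sox1* lower in Hdac3KO at both times. Their part in the histone values was not tested.

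The histone genes together took 0.717% to 0.779% of reads in WT and 0.598% to 0.648% in Hdac3KO. Per kilobase of the RefSeq transcript, *Hist1h4d* was highest with 2378 ± 151 CPM per kb (SD, n = 8). Where genes are ordered by CPM below, length is not taken into account. *Hist1h3e* (764 ± 75.6), *Hist1h1e* (736 ± 120), *Hist1h1d* (677 ± 70.1), *Hist2h4* (664 ± 96.5) and *Hist1h3g* (647 ± 62.1 CPM per kb) followed, and these 5 lay within 1 SD of their neighbours. *Hist1h3c* (369 ± 32.9) and *Hist2h2bb* (357 ± 53.3 CPM per kb) came next. At the low end of the genes past the filter were the testis linker histone *Hist1h1t*, with 2.35, and *Hist2h2be*, with 0.414 CPM per kb. Below the filter, *Hist1h2ao* had 5 reads and *Hist2h3c1* had 1 read over the 8 samples. There were 7 genes without a read in any sample (*Hist2h3c2*, *Hist2h2aa1*, *Hist2h2aa2*, *Hist1h2br*, *Hist1h2bq*, *Hist1h2ap* and *Hist1h4m*). All 7 share a 100-base window with another gene of the family, and since the mapping kept 1 place per read, their reads may have been counted on the copy.

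To see how the family as a whole behaved without HDAC3, the CPM of all 69 genes were summed in each sample, which is insensitive to how reads were divided among near-identical copies. The sum was 6935 and 7689 CPM in WT at 0 hr, 7233 and 7646 in WT at 24 hr, 6496 and 6603 in Hdac3KO at 0 hr and 5982 and 6611 in Hdac3KO at 24 hr. Every Hdac3KO sample lay below every WT sample. The mean was 10.4% lower in Hdac3KO than in WT at 0 hr (6550 ± 76.1 against 7312 ± 533 CPM, SD, n = 2 each) and 15.4% lower at 24 hr (6297 ± 444 against 7440 ± 292 CPM). Without WT replicate 2 the difference at 0 hr was -5.56%. The 10 genes that share no 100-base window with another were lower by 10.4% and 13.9%, and the 59 that do by 10.5% and 15.9%. No test was made of a sum, and in bulk RNA fewer cells in S phase and less histone mRNA per cell cannot be told apart.

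By class, the mean of H1 was 14.4% lower at 0 hr and 19.6% lower at 24 hr in Hdac3KO, H4 was 10.9% and 15.6% lower, and H2B was 11.3% and 15.2% lower. In each of these classes all 4 Hdac3KO samples lay below all 4 WT samples, with the lowest WT and highest Hdac3KO sum at 1718 and 1565 CPM for H1, 1927 and 1795 for H4, and 788 and 772 for H2B. H2A was 16.7% and 13.8% lower, but the Hdac3KO sum of 610 CPM in 1 sample exceeded the lowest WT sum of 605. H3 was 3.85% lower at 0 hr and 11.8% lower at 24 hr, and its groups overlapped. Single samples moved several of these values. At 0 hr, without WT replicate 2, the H3 sum was 4.72% higher in Hdac3KO and the H2B difference was -3.27%. Without WT replicate 1 they were -11.1% and -18.2%, and without either Hdac3KO sample both lay between these values. At 24 hr the H2A difference was -2.87% without Hdac3KO replicate 1 and -24.7% without replicate 2, and the H3 difference -3.17% and -20.3%. The H2B difference at 24 hr was -8.76% without WT replicate 2.

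**Figure D1:**
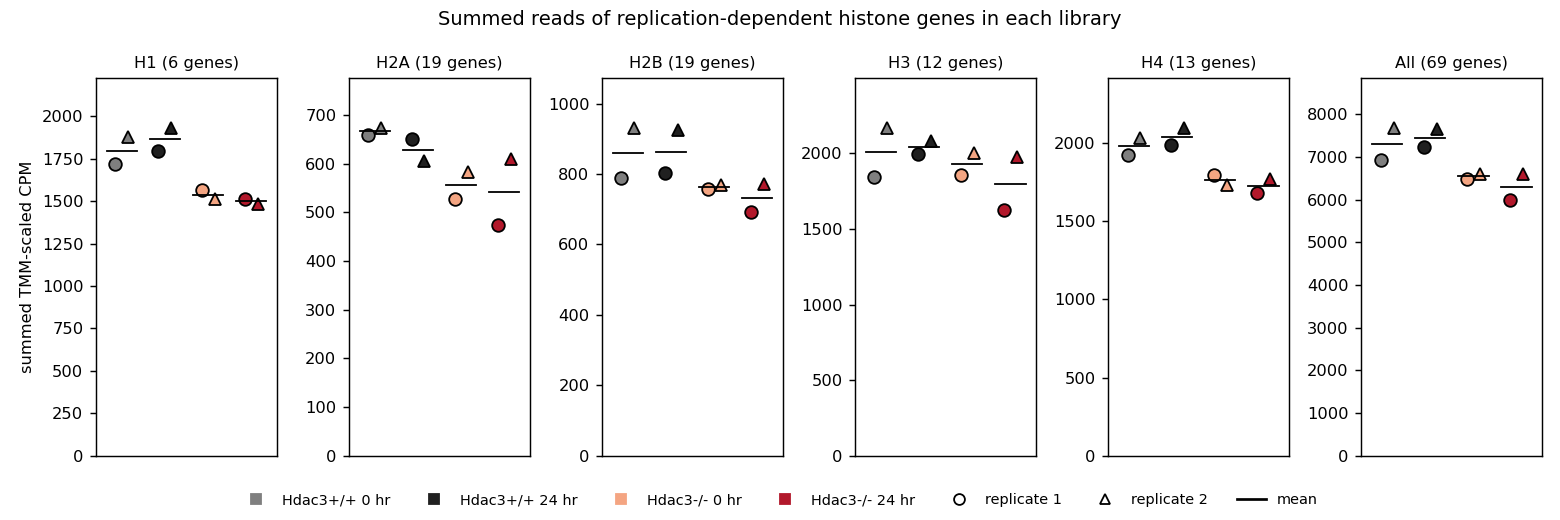
Summed TMM-scaled CPM of each histone class and of all 69 genes in the 8 samples, with points for samples and bars for group means. The 4 Hdac3KO points sit below the 4 WT points for H1, H2B, H4 and the whole family, and the groups overlap for H2A and H3.

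To ask which single genes differed without HDAC3 before *Xist* induction, WT and Hdac3KO were compared at 0 hr. *Hist3h2a*, an H2A gene of the small cluster on chromosome 11, the H2A gene *Hist1h2af* and the linker histone gene *Hist1h1e* fell in Hdac3KO, and no histone gene rose. These were 3 of 60 tested (5%), against 14.1% of the 12969 genes tested in all (1827 genes, of which 7.52% were lower and 6.57% higher). The log2 fold change was below 0 for 49 of the 60 (81.7%), against 49.8% of all genes, with a median of -0.15 against 0.0023. Without WT replicate 2 it was below 0 for 35 of 57, with a median of -0.049. With all 4 samples, 13 of the 60 had an unadjusted p under 0.05, against 3971 of the 12969 genes. In 32 of the 60 both Hdac3KO samples lay below both WT samples (53.3%), against 30.9% of all genes, and 1 lay above (28.9% of all genes). Both the 49 and the 32 include *Hist3h2ba* and *Hist3h2bb-ps*, which passed the filter at 0 hr only through WT samples. Without WT replicate 1 the median log2 fold change was -0.20, and without Hdac3KO replicate 1 or 2 it was -0.11 and -0.16. The number of calls depended on single samples, for histone genes and over all genes.

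The same comparison at 24 hr of DOX called 9 of 60 histone genes (15%), against 13.9% of 13387 genes. *Hist1h1e*, *Hist1h1c*, *Hist3h2a*, *Hist1h2bf*, *Hist1h2bh*, *Hist1h2bl*, *Hist1h4b* and *Hist1h4h* fell (8 of 60, against 7.31% of all genes). *Hist1h1t* rose (1 of 60, against 6.57%), but it passed the 1 CPM filter only through its Hdac3KO samples. The log2 fold change was below 0 for 53 of 60 (88.3%), against 49.5% of all genes, with a median of -0.22 against 0.0044. Without Hdac3KO replicate 1 at 24 hr it was below 0 for 39 of 60, with a median of -0.14. With all 8 samples, 21 of the 60 had an unadjusted p under 0.05, against 4017 of the 13387 genes. All 10 H3 and all 12 H4 genes tested were below 0, as were 5 of 6 H1, 11 of 15 H2A and 15 of 17 H2B genes, with class medians from -0.20 for H2A to -0.32 for H4. At 24 hr both Hdac3KO samples lay below both WT samples for 32 of 60 genes (53.3%), against 29.3% of all genes. Over both times, all 4 Hdac3KO samples lay below all 4 WT samples for 18 of 60 genes (30%), against 18% of all genes, and above them for 1, *Hist1h1t* (16.5% of all genes). Without WT replicate 1 or 2 at 24 hr the median log2 fold change was -0.24 and -0.19, and without Hdac3KO replicate 2 it was -0.31. Here too the number of calls depended on single samples, for histone genes and over all genes.

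**Figure D2:**
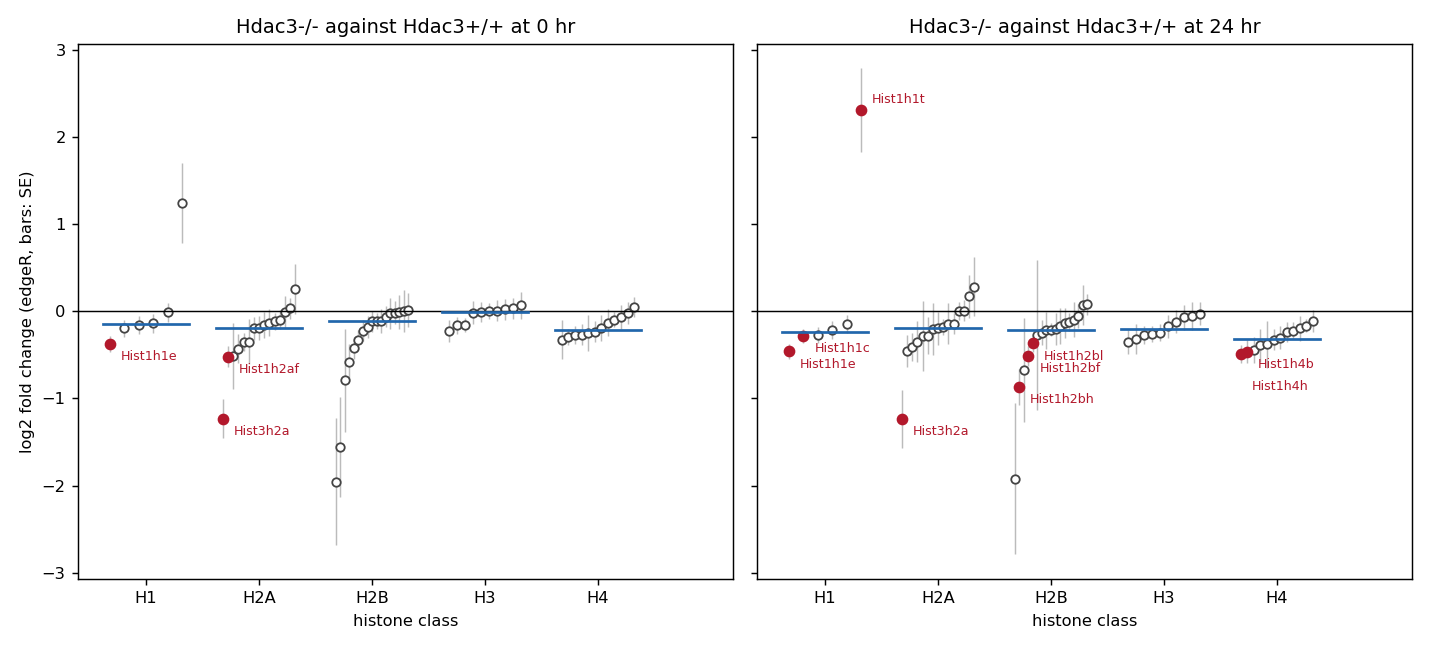
Log2 fold change, Hdac3KO over WT, at 0 hr and 24 hr for the 60 histone genes tested, by class, with the genes past the adjusted p threshold of 0.05 marked. Most points lie below 0 in every class except H3 at 0 hr, where 5 of 10 do, and *Hist1h1t* lies highest at 24 hr.

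Among the linker histones, *Hist1h1e* had 664 and 653 CPM in WT at 0 hr, 635 and 683 in WT at 24 hr, 534 and 476 in Hdac3KO at 0 hr and 509 and 449 in Hdac3KO at 24 hr. The 2 genotypes did not overlap. Its log2 fold change was -0.37 (SE 0.09, adjusted p = 0.0342) at 0 hr and -0.46 (SE 0.09, adjusted p = 0.0130) at 24 hr by edgeR's quasi-likelihood test. *Hist1h1e* lies on the minus strand at chr13:23620629-23622558 and overlaps *Hist1h2be* on the same strand, so reads in the overlap are uncertain. *Hist1h1c* (chr13:23738808-23740367) had 196, 210, 223 and 218 CPM in WT and 179, 172, 182 and 180 in Hdac3KO, each in the order 0 hr replicates 1 and 2, then 24 hr. It was below WT in all 4 Hdac3KO samples, and passed the test only at 24 hr (log2 -0.28, SE 0.08, adjusted p = 0.0401). *Hist1h1d* had 498 to 608 CPM in WT and 472 to 498 in Hdac3KO, with log2 fold changes of -0.16 and -0.27 that did not pass (adjusted p = 0.340 and 0.0901). *Hist1h1a* overlapped between genotypes, with 228 to 275 CPM in WT and 220.0 to 247 in Hdac3KO.

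*Hist1h1t*, the linker histone otherwise made in spermatocytes, moved the other way. It had 12, 11, 6 and 5 reads in WT and 45, 18, 44 and 26 in Hdac3KO, or 0.599 to 0.916 and 1.54 to 3.87 CPM. Every Hdac3KO sample was above every WT sample, at a level far below that of the other H1 genes per kilobase. All WT samples lay under the filter's 1 CPM, so the gene was tested only through the group where it was higher. The log2 fold change was 1.24 at 0 hr (adjusted p = 0.118, not passed) and 2.31 at 24 hr (SE 0.48, adjusted p = 0.0166, edgeR). The gene shares no 100-base window with another histone gene, and lies at chr13:23695814-23696725.

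Of the H2A genes, *Hist3h2a* (chr11:58954685-58956830, plus strand) showed the largest drop of those that passed at 0 hr. It had 48.0 and 62.4 CPM in WT at 0 hr, 39.3 and 56.2 in WT at 24 hr, 18.5 and 28.5 in Hdac3KO at 0 hr and 13.7 and 27.0 in Hdac3KO at 24 hr. The genotypes did not overlap, and replicate 2 was the higher sample in each group. The log2 fold change was -1.23 at both times (SE 0.22, adjusted p = 0.0130 at 0 hr, and SE 0.33, adjusted p = 0.0418 at 24 hr, edgeR). Its sequence shares no window with another family member. The pseudogene *Hist3h2bb-ps*, which starts 173 bases away on the other strand, had 6 to 48 reads in WT and 6 to 12 in Hdac3KO, and the H2B gene *Hist3h2ba* of the same cluster had 10 to 32 and 1 to 11. Neither passed the test (adjusted p = 0.116 and 0.113 at 0 hr, edgeR). *Hist3h2ba* passed the filter only through its WT samples, and *Hist3h2bb-ps* did so at 0 hr. *Hist3h2ba* is counted among the genes below WT at both times with this limit.

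*Hist1h2af* (chr13:23533906-23534304) had 98.6 and 83.8 CPM in WT at 0 hr, 100.4 and 71.7 in WT at 24 hr, 64.7 and 61.5 in Hdac3KO at 0 hr and 53.5 and 72.7 in Hdac3KO at 24 hr. Its groups were apart at 0 hr (log2 -0.52, SE 0.12, adjusted p = 0.0278) and overlapped at 24 hr (log2 -0.46, adjusted p = 0.143, edgeR). It shares 65.3% of its 100-base windows with other histone genes, so its count is uncertain. The most abundant H2A gene by CPM, *Hist1h2ak*, had 116 to 127 CPM in WT and 105 to 129 in Hdac3KO, with no separation.

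*Hist1h2bf*, *Hist1h2bh* and *Hist1h2bl*, all H2B genes of the *Hist1* cluster, passed only at 24 hr. *Hist1h2bf* had 66.99, 68.9, 70.2 and 68.2 CPM in WT and 54.8, 45.4, 50.8 and 46.4 in Hdac3KO (log2 -0.51 at 24 hr, SE 0.11, adjusted p = 0.0223, edgeR). *Hist1h2bh* had 30.3, 47.8, 38.3 and 46.8 in WT and 25.6, 26.1, 22.9 and 23.7 in Hdac3KO (log2 -0.86, SE 0.21, adjusted p = 0.0280). In both genes all 4 Hdac3KO samples were below all WT samples, and so they were for *Hist1h2bl*, with 54.9 to 58.1 CPM in WT and 42.5 to 45.9 in Hdac3KO (log2 -0.37, SE 0.10, adjusted p = 0.0381). Windows shared with other histone genes made up 46.4% of *Hist1h2bf*, 8.16% of *Hist1h2bh* and 62.1% of *Hist1h2bl*. The H2B gene with the highest CPM, *Hist2h2bb*, had 152 to 222 CPM in WT and 153 to 172 in Hdac3KO and did not pass at either time (adjusted p = 0.647 and 0.511).

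H2A and H2B genes lie in the genome as head-to-head pairs, of which 13 had starts 173 to 306 bases apart. In the pairs with a called member other than *Hist3h2a*, the log2 fold changes of the partners at 24 hr were -0.51 for *Hist1h2bf* and -0.14 for *Hist1h2ad*, which start 185 bases apart, and -0.37 for *Hist1h2bl* and 0.17 for *Hist1h2ai*, which start 279 bases apart. *Hist1h2ad* and *Hist1h2ai* did not pass, and whether partners differ from one another was not tested.

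No H3 gene passed the test at either time. *Hist1h3e* had 627 to 797 CPM in WT and 578 to 750 in Hdac3KO, and *Hist1h3f* had 231 to 293 and 188 to 231 CPM, with the lowest WT and highest Hdac3KO sample at nearly the same level. *Hist1h3g* had 330.2 to 362 CPM in WT and 267 to 324 in Hdac3KO, and its genotypes did not overlap although its log2 fold changes of -0.16 and -0.24 did not pass (adjusted p = 0.253 and 0.138).

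Of the H4 genes, *Hist1h4h* (chr13:23531050-23531519) had 72.9, 84.1, 82.2 and 90.4 CPM in WT and 63.7, 68.9, 59.3 and 63.5 in Hdac3KO, in the order given above. The genotypes did not overlap, and the log2 fold change at 24 hr was -0.49 (SE 0.11, adjusted p = 0.0207, edgeR). *Hist1h4b* (chr13:23757013-23757409) had 82.2, 94.0, 95.8 and 103 CPM in WT and 69.2, 76.2, 63.8 and 80.5 in Hdac3KO, again apart (log2 -0.46 at 24 hr, SE 0.13, adjusted p = 0.0468). *Hist1h4d*, the most abundant gene of the family, had 956 to 1043 CPM in WT and 861 to 962 in Hdac3KO, and *Hist2h4* had 243 to 306 and 199 to 245. *Hist4h4*, on its own on chromosome 6, had 102, 152, 99.0 and 143 CPM in WT and 82.4, 120.0, 76.7 and 109 in Hdac3KO. Its replicate 2 was the higher sample in all 4 groups, and the genotypes overlapped.

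**Figure D3:**
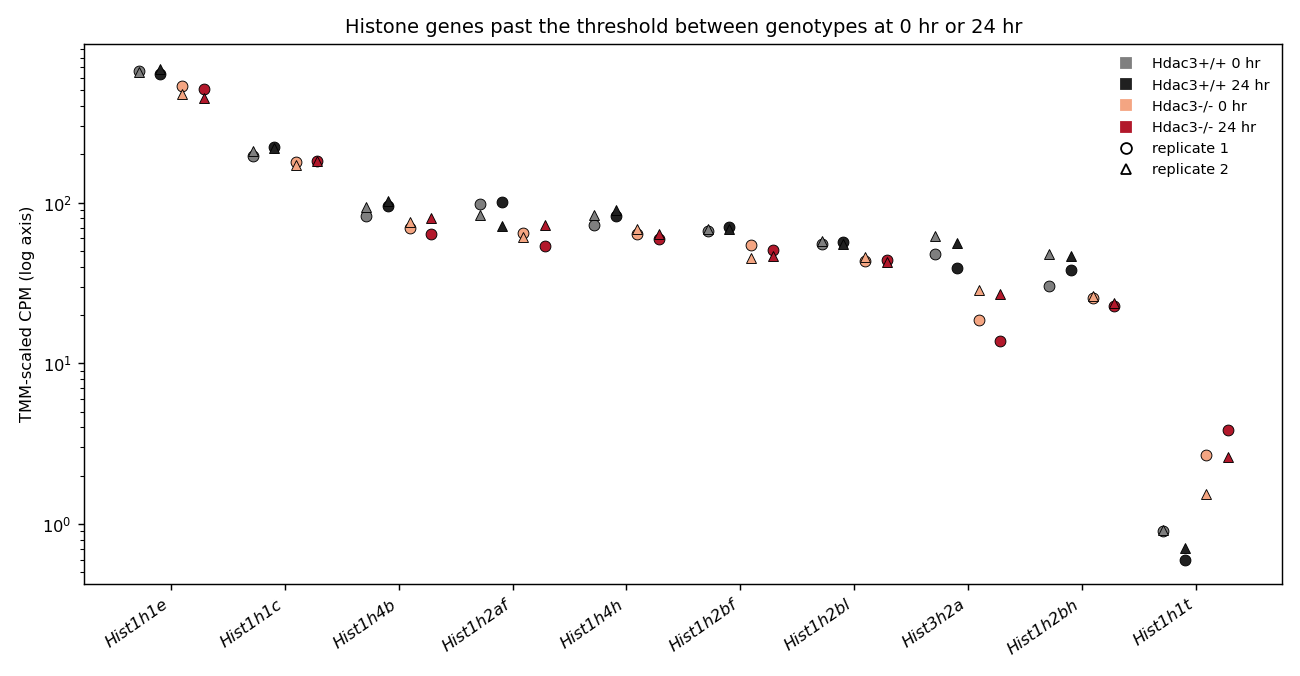
TMM-scaled CPM (log axis) in the 8 samples of the histone genes past the threshold in Hdac3KO against WT at 0 hr or 24 hr. Genes stand side by side on 1 axis, with points for samples. *Hist1h1t* sits higher in Hdac3KO, the other genes sit lower, and only *Hist1h2af* overlaps between genotypes.

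Replicate 2 lay above replicate 1 in all 4 groups for 24 of the 60 genes (40%), against 16.5% of all genes, and below it for 2 (3.33%), against 17.3%. By definition these counts require the same direction in both genotypes, and the other histone genes did not keep it in all 4 groups. With the replicate number as a block, 10 of 60 histone genes passed in Hdac3KO against WT at 0 hr, against 3 without it. At 24 hr 20 passed (27 with the block within genotype), against 9. Over all genes the block called 3143 of 12969 at 0 hr and 3483 of 13387 at 24 hr (4825 within genotype), against 1827 and 1859.

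To ask whether the family changed with *Xist* induction, 24 hr was compared with 0 hr in each genotype. In WT 0 of 60 histone genes passed (edgeR, with 1 at an unadjusted p under 0.05, and 0 by DESeq2 and by limma voom), against 0.209% of all genes, with a median log2 fold change of 0.0053. In Hdac3KO 0 passed (0 at an unadjusted p under 0.05), against 0.0224% of all genes, with a median of -0.07. Over all 13387 genes, 1002 had an unadjusted p under 0.05 in WT and 269 in Hdac3KO. Both WT samples at 24 hr lay above both at 0 hr for 5 histone genes and below for 5 (8.33% each way), against 20.7% and 21.8% of all genes, and in Hdac3KO these counts were 1 (1.67%) and 10 (16.7%), against 10.7% and 10.8%. The family sum was 1.74% higher at 24 hr in WT and differed by -3.87% in Hdac3KO, and the samples of the 2 times overlapped in both genotypes. The difference between genotypes in the response to 24 hr of DOX passed for 0 of 60 histone genes and for 0% of all genes (254 genes and 0 histone genes at an unadjusted p under 0.05 in edgeR, and 1 gene by DESeq2).

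*Hist1h2aa*, an H2A gene known from testis, is given with its values in every sample. It had 16.1 and 27.1 CPM in WT at 0 hr and 11.2 and 16.8 at 24 hr, 20.3 and 31.1 in Hdac3KO at 0 hr and 13.99 and 19.8 at 24 hr. Each sample was lower at 24 hr than the sample of its number at 0 hr, although replicate 2 at 24 hr lay above replicate 1 at 0 hr in WT. In Hdac3KO both samples at 24 hr were below both at 0 hr. The log2 change was -0.64 (SE 0.33, adjusted p = 0.766) in WT and -0.60 (SE 0.32, adjusted p = 1) in Hdac3KO, neither passing. With the replicate number as a block within genotype, the change in Hdac3KO was -0.60 (SE 0.11, adjusted p = 0.00182, edgeR) and in WT it was -0.61 (SE 0.13, adjusted p = 0.00139). That block treats same-numbered samples as pairs, which the labels do not state. Over all 13387 genes this fit called 1337 in WT and 224 in Hdac3KO, and *Hist1h2aa* was the 1 histone gene in each. Its neighbour *Hist1h2ba*, the testis H2B gene 306 bases away on the other strand, had 5.89 to 9.07 CPM over the 8 samples, and its log2 changes of -0.30 in WT and -0.22 in Hdac3KO did not pass.

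Because the cells are a Cast and B6 hybrid, reads over variants could be given to an allele, and the d-score is the fraction of such reads from B6. At least 10 allelic reads in every sample were found for 35 histone genes and 9595 genes in all. The mean B6:Cast ratio over the groups differed from equality for 27 of the 35 (77.1%), against 56% of all genes, with 10 toward B6 and 17 toward Cast (28.7% and 27.3% of all genes). Ratios beyond a log2 of 1 were found for 10 of 35 (28.6%), against 12.1% of all genes, and the median absolute log2 ratio was 0.43 against 0.29.

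On the Cast side, *Hist1h2al* had d-scores of 0 to 0.058 (log2 B6:Cast -6.12, SE 0.23) from 61 to 126 allelic reads a sample. *Hist4h4*, which shares no window with another member, had 0.111 to 0.174 (log2 -2.43, SE 0.07), and *Hist1h4c* (log2 -2.22), *Hist1h3a* (-1.74), *Hist1h3i* (-1.63) and *Hist1h2bb* (-1.43) followed. On the B6 side were *Hist1h2ak*, with 0.755 to 0.877 (log2 2.03, SE 0.08), *Hist1h3c*, with 0.759 to 0.832 (log2 1.94, SE 0.05), *Hist1h3h* (1.29) and *Hist2h2ac* (1.10). In each of these 10 genes all 8 samples fell on 1 side of 0.5. The other genes past the threshold, apart from *Hist1h1a*, *Hist1h1e* and *Hist2h2bb* given next, were *Hist1h3b* (log2 -0.81), *Hist1h2bc* (-0.66), *Hist1h4b* (-0.63), *Hist1h2bn* (-0.36), *Hist1h2bk* (-0.31), *Hist1h2bl* (-0.26), *Hist1h1c* (-0.22) and *Hist1h4a* (-0.21) toward Cast. Toward B6 they were *Hist2h3b* (0.72), *Hist1h4k* (0.65), *Hist1h2ai* (0.64), *Hist3h2a* (0.61), *Hist1h2ab* (0.36) and *Hist2h4* (0.11).

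The 3 genes with most allelic reads were linker and H2B genes. *Hist1h1a* had 8109 B6 and 8813 Cast reads over the 8 samples (log2 -0.11, SE 0.03, adjusted p = 0.0122, edgeR). *Hist1h1e* had 7173 and 9156 (log2 -0.35, SE 0.03), and *Hist2h2bb* 6181 and 8322 (log2 -0.43, SE 0.04). *Hist3h2a*, lower in Hdac3KO in its total, had d-scores of 0.511 to 0.640 in WT and 0.579 to 0.678 in Hdac3KO, which overlap. Whether mapping favours an allele, and whether reads of a near-identical copy carry the other allele, was not tested. Shared windows made up 92.0% of *Hist1h3h* and 68.6% of *Hist1h3i*, but 10.5% of *Hist1h2ak*.

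**Figure D4:**
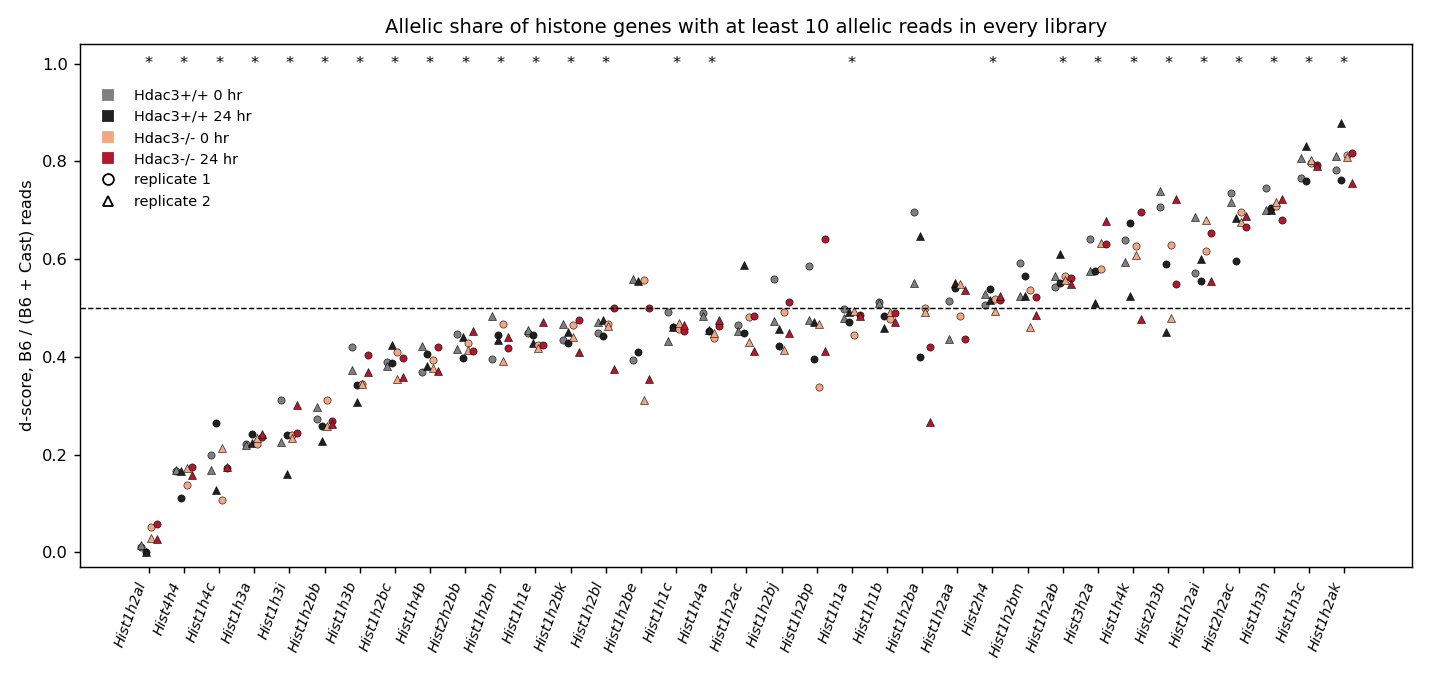
d-score (B6 reads over B6 plus Cast reads) of the 35 histone genes with at least 10 allelic reads in every sample, with 1 point per sample and genes ordered by their mean. The line at 0.5 marks equal alleles, *Hist1h2al* sits near 0, and *Hist1h2ak* and *Hist1h3c* sit near 0.8.

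The allelic ratio of histone genes did not pass a test of genotype or DOX. In Hdac3KO against WT, 0 of 35 passed at 0 hr (3 at an unadjusted p under 0.05) and 0 at 24 hr (4), against 0.667% and 1.07% of all genes. Of all 9595 genes, 820 and 885 had an unadjusted p under 0.05. For 24 hr against 0 hr 0 passed in WT (3 at an unadjusted p under 0.05) and 0 in Hdac3KO (0), against 1.61% and 0.406%. For the difference between genotypes 0 passed (4), against 0.208%. Over all genes the unadjusted counts of these 3 tests were 524, 418 and 435. Each count of histone genes past the threshold was 0 by limma too.

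The allelic reads were spread unevenly along the *Hist1* cluster. From *Hist1h4h* to *Hist1h4d*, chr13:23531050-23582735, 14 neighbouring genes had 307949 reads over the 8 samples, of which 15 were allelic (0.00487%). The other histone genes had 322895 reads, of which 172262 were allelic (53.3%). The run spans 51.7 kb and held 48.8% of all histone reads, so the allelic values describe the rest of the family.

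**Figure D5:**
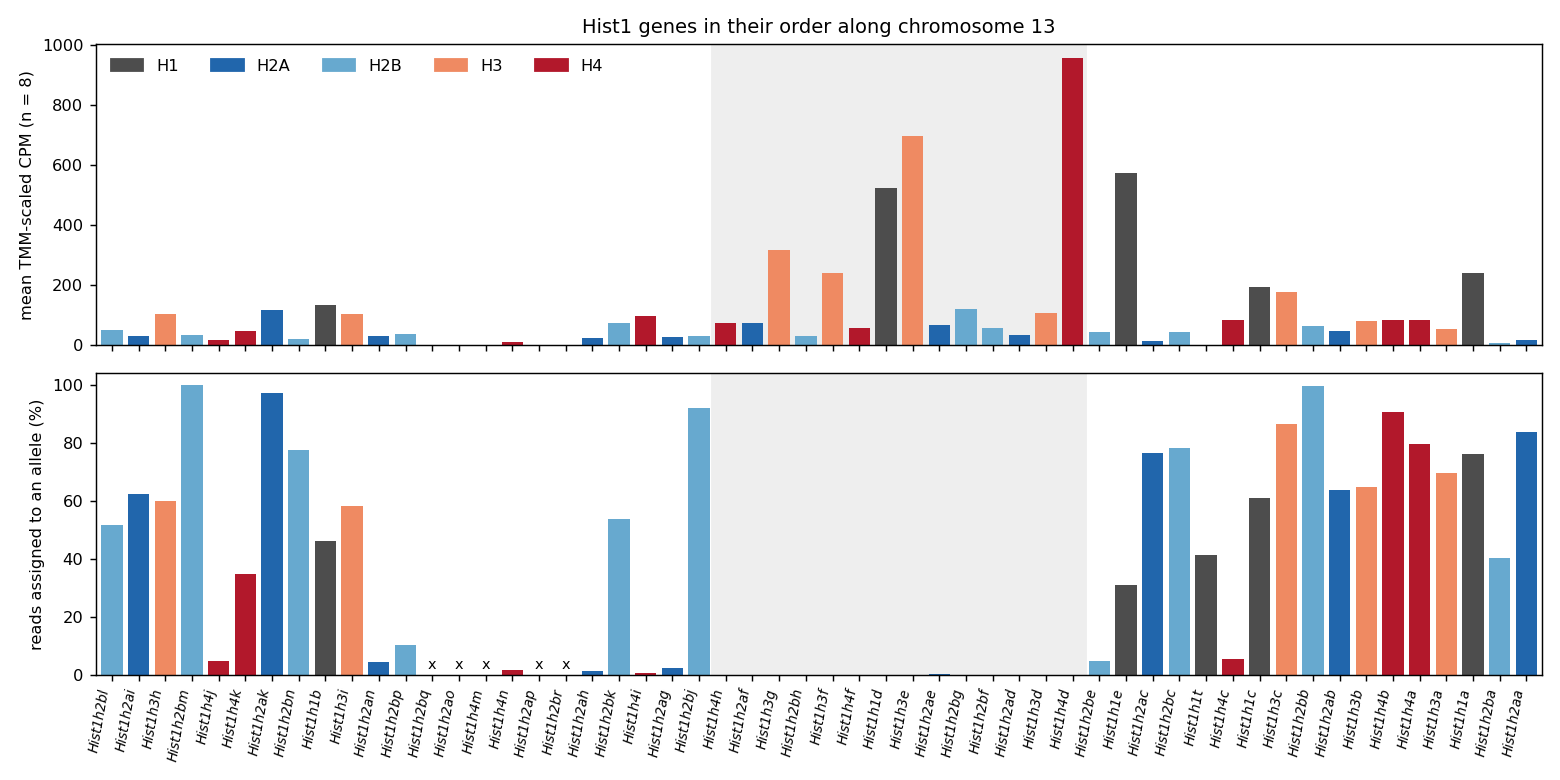
Mean TMM-scaled CPM (top) and share of reads given to an allele (bottom) of the *Hist1* genes in their order along chromosome 13, without *Hist1h2al*. Each bar is 1 gene over the 8 samples, and crosses in the lower panel mark genes under 10 reads in total. The gray band marks the 14 genes from *Hist1h4h* to *Hist1h4d*, which hold 15 allelic reads of 307949.

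The genes that act on histone mRNA were compared by the same fits. Of 16 genes for histone transcription and 3′ end processing, 0 passed at either time (edgeR). *Slbp*, whose protein binds the stem-loop, had 67.6 to 76.0 CPM in WT and 59.3 to 66.4 in Hdac3KO (log2 -0.09, adjusted p = 0.619 at 0 hr, and -0.24, adjusted p = 0.138 at 24 hr). *Npat* had log2 fold changes of 0.02 and 0.0040 and *Casp8ap2*, a further component of histone locus bodies, 0.08 and 0.02. The list medians were 0.08 and 0.04, beside -0.15 and -0.22 for the histone genes. None of 9 histone chaperone genes passed (list medians 0.04 and -0.0045).

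Replacement variants are made from polyadenylated mRNAs outside the clusters, and 2 of 11 fell at 0 hr and 1 at 24 hr, while 2 rose at 24 hr. Of all genes, 7.52% were lower at 0 hr, and 7.31% were lower and 6.57% higher at 24 hr. *H1f0*, the linker variant of cells that leave the cycle, had 36.0 to 48.3 CPM in WT and 13.4 to 18.4 in Hdac3KO (log2 -1.25, SE 0.18, adjusted p = 0.00614 at 0 hr, and -1.48, SE 0.16, adjusted p = 0.00126 at 24 hr, edgeR). *H2afy* (macroH2A) fell at 0 hr (-0.42, adjusted p = 0.0477), and *H2afv* (0.47, adjusted p = 0.0256) and *H2afj* (0.55, adjusted p = 0.0300) rose at 24 hr. *H2afz* had 366 to 447 CPM in WT and 293 to 370 in Hdac3KO, overlapping, and did not pass (adjusted p = 0.306 and 0.110).

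Since histone mRNA is made in S phase, cell cycle genes are given beside these values. Of 24 S phase genes *Ung* and *Rpa2* rose and *Tyms* fell at 0 hr, and *Tyms* fell at 24 hr, beside the shares of all genes just given and 6.57% higher at 0 hr. Their sum was 4728 to 5365 CPM in WT and 4885 to 5095 in Hdac3KO, overlapping, while the histone sum did not overlap. Of 14 G2 and M genes, *Mki67* fell at 0 hr (log2 -0.59, SE 0.08, adjusted p = 0.00576, edgeR) and *Ccnb2*, *Plk1*, *Aurkb* and *Mki67* fell at 24 hr. Their sum was 2778 to 3075 CPM in WT and 2532 to 2695 in Hdac3KO, without overlap, with list medians of -0.14 and -0.20. The part of the cell cycle in the histone values was not tested.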

How the data were processed

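RNA-seq tables of 8 samples were used, 2 in each of 4 groups named by genotype and time. According to the paper's methods and the labels, the authors first took out rRNA reads, aligned what remained with TopHat2 2.1.0 (mm10, refFlat models, 1 place per read) and deposited unnormalized counts of fragments over exons from featureCounts 1.5.1 (stranded), counts per allele, and the d-score, the fraction of allelic reads from B6, which the authors gave where a gene had 10 or more. The refFlat models were not used here, and lengths, positions and sequences came from RefSeq and GENCODE M21.

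Here total counts were tested with edgeR 4.0.16 (R 4.3.3; TMM, quasi-likelihood test, Benjamini-Hochberg adjustment over all genes, adjusted p threshold 0.05) for genes above 1 CPM, without TMM factors, in at least 2 samples. The 4 samples at 0 hr entered the first comparison (2 residual degrees of freedom) and all 8 the others (4). Allelic counts were tested with edgeR with an effect for each sample and a B6 term for each group. Class sums, per-kilobase levels and sequence matches were described without a test. Replicates differed beyond counting noise (chi-square per degree of freedom 3.94 to 12.9). The code was tested on simulated data. Alternatives used limma 3.58.1, DESeq2 1.42.0, other filters and scalings, blocks and left-out samples. Named were, in each class, the 3 genes with the highest CPM, the 8 called genes with the smallest p in each comparison, testis or single genes, genes past the allelic threshold, called genes of each list, and fixed checks. *Hist1h1d*, *Hist1h2ad*, *Hist1h2ai* and the genes at 0 were added after their values were seen. The histone genes and all lists were chosen with earlier results of these data known. Where nothing says that samples came from separate cultures, p-values measure only the spread between these samples. Same-numbered samples deviated together most in Hdac3KO between 0 hr and 24 hr (r = 0.713 across genes, against 0.352 in WT and 0.219 to 0.260 between genotypes). At both times the median d-score of chromosome 16 was 0.333 in Hdac3KO replicate 1, as in WT (0.332 to 0.341), and 0.493 to 0.500 in replicate 2. The labels do not state this pairing, so it is a hint from the data.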

Additional observations from a re-analysis of the deposited data

How the results depend on the processing

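None of the called histone genes changed sign under any alternative that could be run. Of the 14 alternatives at 0 hr, *Hist3h2a* passed under 13, *Hist1h1e* under 12 and *Hist1h2af* under 11. Of 18 at 24 hr, *Hist1h1e* passed under 16, *Hist1h4h*, *Hist1h2bf* and *Hist1h1t* under 15, *Hist1h2bh* under 14, *Hist3h2a* under 13, *Hist1h4b* under 10, *Hist1h1c* under 9 and *Hist1h2bl* under 8. Scaling by total reads alone moved the median of all genes at 0 hr to -0.08 and the split of calls to 624 higher and 1256 lower, against 852 and 975 with TMM, and called 7 histone genes. Without TMM factors the family sum was 14.5% lower in Hdac3KO at 0 hr and 17.3% lower at 24 hr.

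The replicate number as a block, which the labels do not tie to a clone, raised the genes called from 1827 to 3143 at 0 hr and from 1859 to 3483 at 24 hr (4825 with the block within genotype), and the histone genes from 3 to 10 and from 9 to 20 (27 within genotype). For 24 hr against 0 hr the block called 180 genes in WT (1337 within genotype, 1 of them a histone gene, *Hist1h2aa*) and 13 in Hdac3KO (224 within genotype, 1 a histone gene), and 153 genes for the difference between genotypes within genotype. For allelic ratios the block gave 109 genes at 0 hr and 31 for the difference between genotypes.

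With no filter, 3107 genes and 9 histone genes passed at 0 hr, 2939 and 16 at 24 hr, 275 genes with DOX in WT, 36 in Hdac3KO and 6 for the difference between genotypes; a filter of 0.1 CPM gave 6 with DOX in Hdac3KO. DESeq2 called 118 genes with DOX in WT, 16 in Hdac3KO and 1 for the difference, and voom 12 with DOX in WT. Limma on allelic ratios called 2 genes at 0 hr, 2 at 24 hr, 94 with DOX in WT, 1 in Hdac3KO and 0 for the difference. The cause of these moves was not tested.

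Leaving out 1 sample gave 329 to 3473 genes and 0 to 10 histone genes at 0 hr, 429 to 2039 genes and 0 to 9 histone genes at 24 hr, and 2 to 55 genes with DOX in WT. Allelic calls ran from 12 to 121 genes at 0 hr, 23 to 133 at 24 hr, 83 to 158 with DOX in WT and 3 to 21 for the difference. The H3 sum at 0 hr ran from -11.1% to 4.72% in Hdac3KO against WT, reversed without WT replicate 2.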

Other observations

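Other RNAs without a polyA tail were measured in the same libraries. Of the 58 small nuclear, nucleolar and related RNAs tested at 0 hr, 4 rose and 0 fell in Hdac3KO, and of 62 at 24 hr 2 rose and 0 fell, beside 6.57% of all genes higher at each time and 7.52% and 7.31% lower, with list medians of 0.40 and 0.07. *Terc*, the RNA of telomerase, had 48.9, 72.7, 61.6 and 66.6 CPM in WT and 147, 148, 116 and 141 in Hdac3KO (log2 1.29, SE 0.18, adjusted p = 0.00520 at 0 hr, and 1.01, SE 0.17, adjusted p = 0.00790 at 24 hr, edgeR quasi-likelihood test with Benjamini-Hochberg adjustment). Of the 5 cell cycle inhibitor genes, *Cdkn1b* fell at 24 hr, from 16.3 and 14.7 CPM in WT to 7.04 and 8.85 in Hdac3KO (adjusted p = 0.0341), while the list summed to 216 to 256 CPM in WT and 258 to 302 in Hdac3KO.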
